A study of Mus musculus with 6 samples.

Results

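Genes for the respiratory chain and the ATP synthase of mitochondria were compared between control and etoposide-treated fibro-adipogenic progenitors (FAPs). The set was taken by name: every gene of the deposited table whose symbol begins with Nduf, Uqcr or Atp5, is Sdha, Sdhb, Sdhc, Sdhd or Cyc1, or is Cox with a digit from 4 to 8 and a letter. It held 91 of the 16894 genes listed. Of these, 80 are subunits: 36 of complex I, 4 of complex II, 9 of complex III, 16 of complex IV and 15 of complex V. The other 11 share the names without being subunits of the 5 complexes, namely 8 assembly factors (Ndufaf1 to Ndufaf7 and Atp5sl), Cox7a2l, Atp5s and the pseudogene Atp5l2-ps. Subunits encoded in mitochondrial DNA were not analysed here.

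Complexes I and II pass electrons from NADH and succinate to ubiquinone, complex III passes them on to cytochrome c, and complex IV, cytochrome c oxidase, hands them to oxygen. Complexes I, III and IV pump protons, and the ATP synthase (complex V) lets protons flow back through the rotating ring of its membrane part, Fo, to drive ATP synthesis in its catalytic part, F1. Most subunits are encoded in the nucleus and expressed in nearly all cells, and a few of complex IV have second isoforms restricted to muscle, lung, testis or low oxygen.

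FAPs are mesenchymal cells of muscle that can form fibroblasts and adipocytes. Those used had been sorted as CD45-, CD31-, α7-integrin-negative and SCA-1+ cells from leg muscles of C57BL/6 mice of both sexes, aged 3 to 6 months, and both groups had been grown in medium with 20% serum and bFGF at 3% oxygen. The 3 control cultures were non-senescent FAPs, and the 3 senescent cultures had been given 20 µM of etoposide, which breaks DNA through topoisomerase, for 48 h and then 5 days of normal medium. Nothing states whether the replicates come from separate animals, so p-values measure the spread between these libraries, which may be technical, and in bulk RNA fewer cells of a kind cannot be told apart from less RNA per cell. Genes received 41412179 to 59912520 reads per library, and 1 read was worth 0.0167 to 0.0225 CPM, the deposited unit, in which reads are divided by a library size that edgeR had scaled.

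Cdkn1a, the p21 cell cycle inhibitor, rose from 289.9 ± 40.5 to 1038 ± 21.4 CPM (SD, n = 3 each), and the proliferation gene Mki67 fell from 158 ± 78.6 to 12.7 ± 5.49 CPM. Cdkn2a gave 85.5 ± 38.2 and 89.97 ± 23.2 CPM. All 8 FAP markers fixed for the check were listed, summing to 16955 to 35595 CPM in control and 9930 to 14254 CPM in senescent libraries. Col1a1 and Col3a1 made up most of these sums, and Col1a1 was called lower (-2.29), whereas Ly6a (0.81), Cd34 (1.60), Dcn (1.79) and Lum (1.98) were called higher, and the median of the 8 was 0.52. Of 10 myogenic markers 4 were listed, summing to 35.2 to 54.0 and 35.6 to 38.5 CPM, with Pax7, Myf5, Myod1, Myog, Ckm and Mb not listed. Itga7, which encodes the α7-integrin of the sort, was called higher (0.83) and Acta1 lower (-1.49). Des was not called, and Myh3 was too low to be tested. Of 6 immune markers 3 were listed, summing to 7.77 to 8.86 and 12.2 to 14.0 CPM, and all 5 endothelial markers, summing to 19.2 to 39.5 and 23.8 to 31.2 CPM. Of the immune markers, Cd68 (1.43) and Itgam (1.11, at 0.0223 and 0.631 CPM) were called higher and Csf1r was not called. Of the endothelial markers, Pecam1 (0.89) and Vwf (0.64) were called higher and Kdr lower (-0.74). Tek was not called, and Cdh5 was too low to be tested. The part of these cells in the results below was not tested.

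Most transcripts of the respiratory chain and the ATP synthase differed little between the groups. Among the subunits 15 were called lower, by at most 0.58 on the log2 scale, 6 of them in the ATP synthase and 9 in complexes I to IV, and 1 isoform, Cox6b2, rose steeply. The 14776 genes that reached 0.5 CPM in 3 or more libraries were compared by limma on log2(CPM + 0.5), senescent minus control, and a gene was called at a Benjamini-Hochberg adjusted p under 0.05 over all of them. Of the 91 genes 90 were tested. Cox6b2 and Ndufaf3 were called higher, beside 21.8% of all genes tested, and 17 genes were called lower, beside 24.3%. The remaining 71 were not called. By complex, the lower calls were 4 of 36 in complex I, 1 of 4 in complex II, 3 of 9 in complex III, 1 of 15 tested in complex IV, 6 of 15 in complex V and 2 of the 11 other genes.

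Without a test, all 3 senescent libraries lay above all 3 control libraries for 7 of the 90 genes, beside 26.5% of all genes tested, and below them for 34, beside 30.9%. A log2 fold change beyond 1 with an unadjusted p below 0.01 was reached by 10.8% of all genes and, among the 90, by Cox6b2 alone. The median log2 fold change was -0.05 in complex I, -0.06 in complex II, -0.15 in complex III, -0.12 in complex IV and -0.20 in complex V, against -0.03 over all genes tested. Over all genes with a mean of 30 CPM or more the median was -0.11. The directions by complex depend on the scaling: with library totals alone, the median of all genes moved from -0.03 to 0.17. All 5 medians of the complexes were then above 0.

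**Figure D1:**
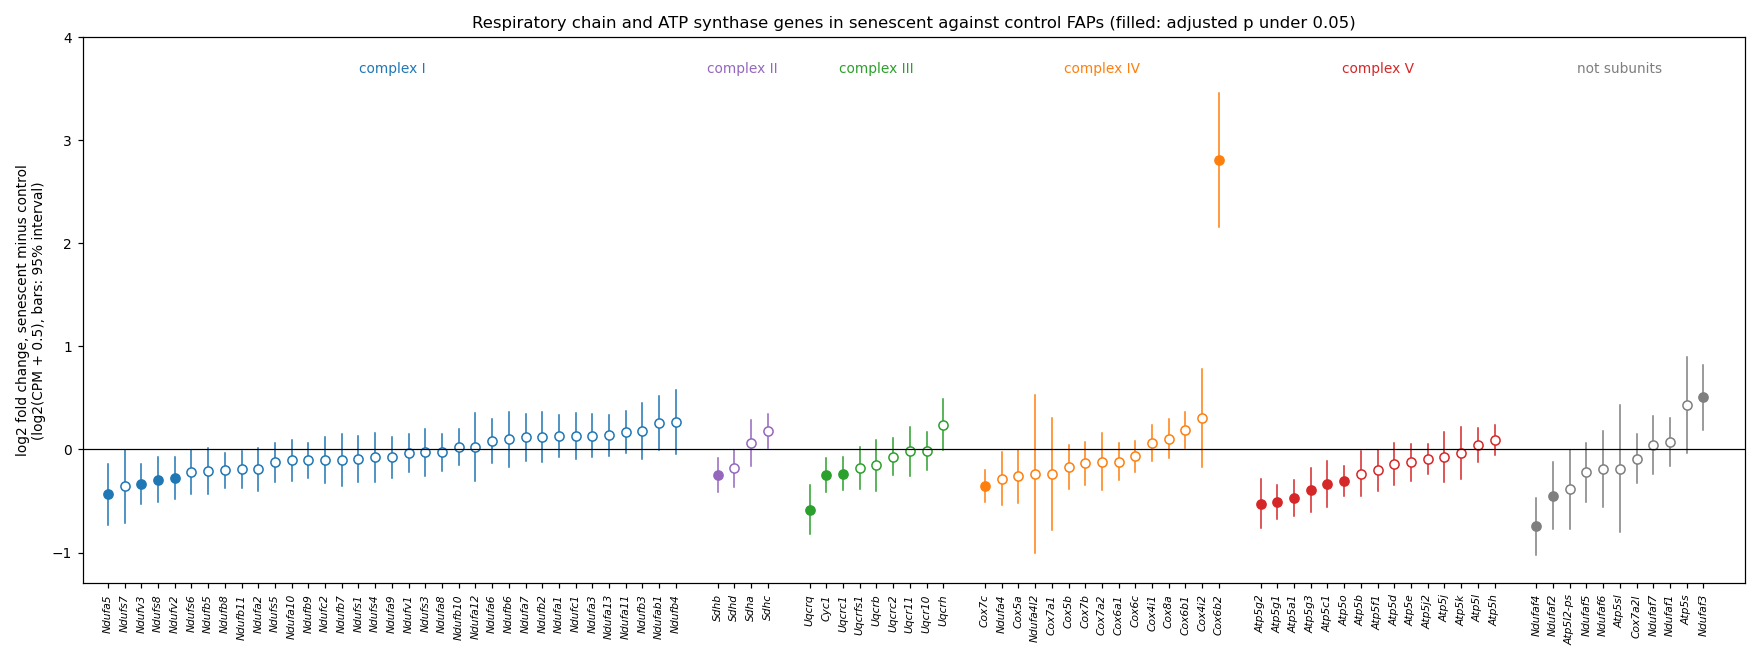
Log2 fold change, senescent minus control, on the log2(CPM + 0.5) scale for 89 of the 90 genes tested, by complex. Points are limma estimates, bars their 95% intervals, and filled points have an adjusted p under 0.05. Most points lie between -0.6 and 0.3, with Cox6b2 at 2.81 far above them.

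The subunits sat in a narrow band. Of the 79 subunits tested, 66 had a log2 fold change within 0.3 of zero (83.5%), against 44.7% of all genes tested, and for 60 the whole 95% interval lay within 0.5 of zero (75.9%), against 30.1%. Subunits are well expressed, and well expressed genes leaned lower in general. Among genes with a mean of 30 CPM or more, a level chosen after the values were seen, 16.6% of 5712 were called higher and 33.9% lower, with a median of -0.11, whereas 0 of 67 subunits were called higher and 14 (20.9%) lower, with a median of -0.12. By limma 2 of the 67 were higher at an unadjusted p under 0.05, while edgeR on the recovered reads called 1 higher, Sdhc, and DESeq2 called 2, Sdhc and Cox6b1. At 30 CPM or more, 86.6% of the subunits and 51.7% of all genes lay within 0.3 of zero. The whole interval lay within 0.5 of zero for 82.1% and 46.3%. These are descriptions, with no test of the subunits as a list.

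**Figure D2:**
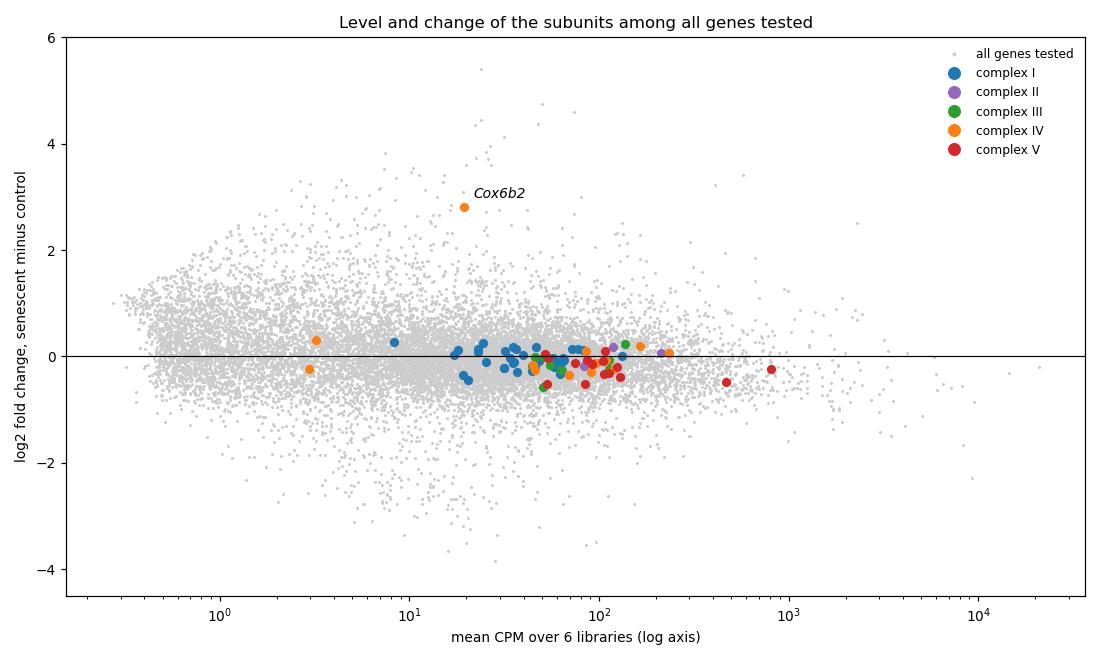
Mean CPM over the 6 libraries (log axis) against the log2 fold change, senescent minus control, for all 14776 genes tested (grey) and the 79 subunits tested (coloured by complex). The subunits form a flat band near zero inside the cloud of all genes, with Cox6b2 at 2.81 as the exception.

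The ATP synthase held the largest share of lower calls among the 5 complexes, 6 of 15 (40%). This stood beside 24.3% of all genes tested and 33.9% of those with a mean of 30 CPM or more. Its 15 subunits summed to 2646, 2848 and 2576 CPM in control replicates 1 to 3 and to 2195, 2229 and 2276 CPM in senescent replicates 1 to 3. Each senescent sum lay below each control sum, with a change of the mean of -17.0%, in a sum where longer transcripts weigh more. Without Atp5a1 and Atp5b, the 2 members with the highest CPM, it was -13.5%. As a share of all reads on genes, without the deposited scaling, the 15 subunits took 0.250% in control and 0.240% in senescent libraries on average, and the libraries overlapped.

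The c-ring, the rotor of Fo, is built from identical copies of 1 protein encoded by 3 genes, Atp5g1, Atp5g2 and Atp5g3, whose mature products are the same and whose targeting sequences differ. All 3 fell. Atp5g1 measured 104, 94.5 and 98.1 CPM in control and 71.6, 69.2 and 67.2 CPM in senescent libraries. Every senescent library was below every control library, with a log2 fold change of -0.51 (SE 0.07, limma adjusted p 0.00125). Atp5g2 went from 71.0, 62.7 and 55.0 CPM to 45.1, 42.3 and 42.4 CPM, a change of -0.53 (SE 0.10, limma adjusted p 0.00494), and again the groups did not overlap. Atp5g3 went from 136, 167 and 139 CPM to 109, 112 and 115 CPM, a change of -0.39 (SE 0.09, limma adjusted p 0.0112), also without overlap. The proportion between the 3 genes did not separate the groups: Atp5g1 stood at 147% to 178% of the CPM of Atp5g2 in control and 159% to 163% in senescent libraries, with a difference in log2 ratio of 0.02. For Atp5g3 over Atp5g2 the difference was 0.14 (two-sided exact permutation p 1 and 0.6; 3 against 3 libraries allow no p below 0.1). Atp5g1 has a near-identical copy that the table also lists (95% or more identity over 200 bases or more), so its reads may have been split.

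The promoters of the 3 c-ring genes are shown because these genes fell together while coming from separate loci. Each runs from 250 bases before to 50 bases after the RefSeq start, on GRCm38.p6, 5′ to 3′ on the gene's strand (minus for all 3), with matches to the core of the NRF1 motif, GCGCANGCG on either strand, in capitals. NRF1 is a transcription factor of many nuclear genes for respiratory subunits. The windows are chr11:96075582-96075881 for Atp5g1, chr15:102670998-102671297 for Atp5g2 and chr2:73911277-73911576 for Atp5g3.
Atp5g1: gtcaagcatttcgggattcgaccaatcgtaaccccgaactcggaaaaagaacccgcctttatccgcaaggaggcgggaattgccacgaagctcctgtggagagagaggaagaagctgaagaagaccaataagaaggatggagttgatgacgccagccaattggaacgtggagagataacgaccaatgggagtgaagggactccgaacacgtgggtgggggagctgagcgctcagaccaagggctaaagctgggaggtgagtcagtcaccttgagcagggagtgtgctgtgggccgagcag
Atp5g2: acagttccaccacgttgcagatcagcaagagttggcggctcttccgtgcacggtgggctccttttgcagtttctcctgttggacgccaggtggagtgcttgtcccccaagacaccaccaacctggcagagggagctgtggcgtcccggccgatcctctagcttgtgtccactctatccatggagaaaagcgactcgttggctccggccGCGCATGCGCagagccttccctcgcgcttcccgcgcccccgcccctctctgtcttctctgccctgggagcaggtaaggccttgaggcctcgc
Atp5g3: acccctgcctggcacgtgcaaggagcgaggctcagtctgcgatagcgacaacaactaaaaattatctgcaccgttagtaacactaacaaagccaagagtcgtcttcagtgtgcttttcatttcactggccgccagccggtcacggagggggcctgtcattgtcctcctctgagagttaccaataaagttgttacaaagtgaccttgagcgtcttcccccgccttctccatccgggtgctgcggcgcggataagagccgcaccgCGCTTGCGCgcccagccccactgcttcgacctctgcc
The windows of Atp5g2 and Atp5g3 hold these letters and that of Atp5g1 does not. A match is a description of the sequence and shows no binding.

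In F1, which carries the catalytic sites, Atp5a1 and Atp5b encode the α and β subunits that alternate around the central stalk. Atp5a1 measured 543, 569.8 and 518 CPM in control and 383, 388 and 404 CPM in senescent libraries. The groups were far apart, with a log2 fold change of -0.47 (SE 0.08, limma adjusted p 0.00245). Its partner Atp5b, the highest of complex V per length at 207 CPM per kb of exon in control, measured 847, 961 and 825 CPM against 722, 749.5 and 762 CPM. Those values did not overlap either, but the change of -0.23 (SE 0.09, limma adjusted p 0.0766) missed the threshold. Atp5c1, the γ subunit of the central stalk, went from 118 ± 12.6 to 93.5 ± 5.84 CPM (SD, n = 3), a change of -0.33 (limma adjusted p 0.0230). Atp5o, the subunit of the peripheral stalk that confers oligomycin sensitivity, went from 122, 129 and 125 CPM to 102, 101 and 102 CPM, a change of -0.31 (SE 0.06, limma adjusted p 0.00629).

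The other 8 subunits of the ATP synthase were not called. Atp5l and Atp5k, both small subunits of Fo near the dimer interface, lay closest to zero, at 51.4 ± 2.38 against 52.9 ± 1.59 CPM and 54.6 ± 3.95 against 53.6 ± 6.90 CPM. Their groups overlapped. Atp5h was the only member with all senescent libraries above the control ones, at a log2 fold change of 0.09. The lower calls of Atp5g1, Atp5g2 and Atp5a1 held under all 16 alternative settings, those of Atp5g3 and Atp5o under all but library totals alone, and that of Atp5c1 under 11, lost with library totals alone, with quantile normalization and without any 1 of the 3 senescent libraries. Across these settings the log2 fold change ranged from -0.54 to -0.30 for Atp5g1, from -0.62 to -0.32 for Atp5g2 and from -0.51 to -0.25 for Atp5a1.

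**Figure D3:**
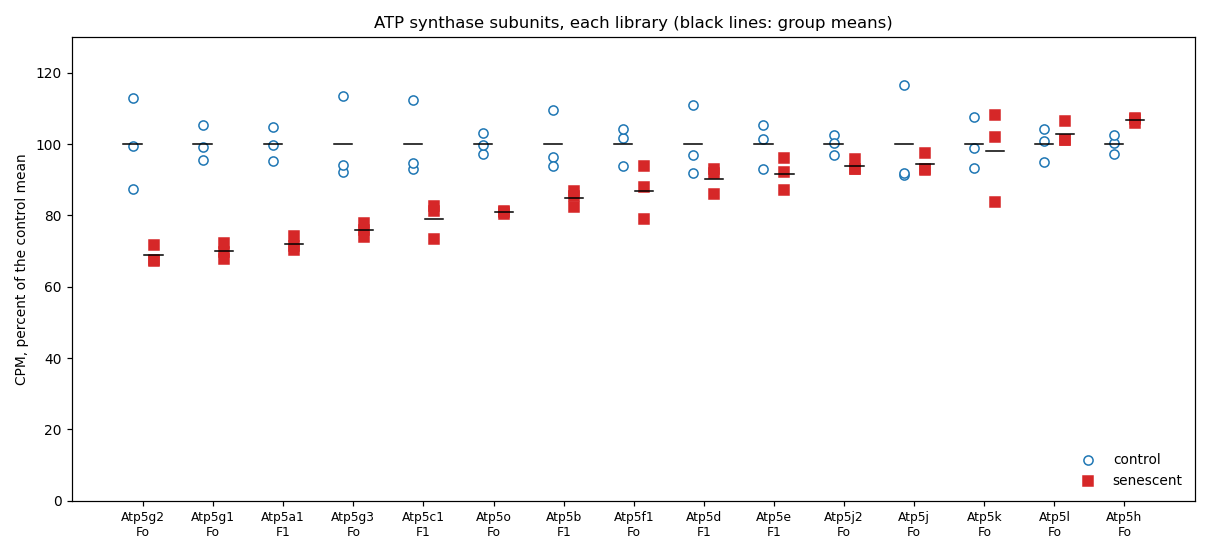
CPM of the 15 ATP synthase subunits in each library, as a percentage of the control mean of the gene. Open circles are control and squares senescent libraries, black lines the group means, and the part of the enzyme stands under each name. The senescent libraries of Atp5g2, Atp5g1 and Atp5a1 lie below all control libraries, while Atp5k, Atp5l and Atp5j overlap.

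Complex IV gave the single large change. Cox6b2 encodes the testis isoform of the COX6B subunit, which sits on the intermembrane side of the enzyme, and Cox6b1 the isoform of most other tissues. Cox6b2 measured 5.45, 2.57 and 6.14 CPM in control and 30.4, 33.7 and 38.8 CPM in senescent libraries. Every senescent library exceeded every control library, with means of 4.72 ± 1.89 and 34.3 ± 4.26 CPM (SD, n = 3), a fold of 7.27. The log2 fold change was 2.81 (SE 0.28, limma adjusted p 0.000377), and it stayed between 2.46 and 3.02, called higher, under all 16 alternatives. Cox6b1 measured 144, 167 and 153 CPM against 175, 173 and 179.9 CPM, with no overlap but no call at 0.19 (SE 0.08, limma adjusted p 0.0756). Per length, Cox6b2 went from 4.26 to 31.0 CPM per kb of exon, while Cox6b1 stood at 219 and 248.8 CPM per kb. In CPM, Cox6b2 amounted to 1.53% to 4.02% of Cox6b1 in control libraries and to 17.3% to 21.6% in senescent libraries. Of 7 pairs of related genes compared, only this ratio separated the groups (two-sided exact permutation p 0.1, the smallest that 3 against 3 allow; 0.7 after Benjamini-Hochberg adjustment over the 7 pairs).

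Cox6b2 lies on chromosome 7 at 4751792 to 4753094 (GRCm38, minus strand) and shares no exon bases with another annotated gene. The nearest listed gene, Fam71e2, lies 132 bases upstream on the same strand and measured 0.145 CPM in control and 0.249 CPM in senescent libraries on average, too low to be tested. The next, Il11, 19279 bases away, stood at 52.8 and 43.8 CPM and was not called. The promoters of the isoform that rose and of its partner are shown side by side, from chr7:4753045-4753344 and chr7:30626065-30626364 (GRCm38.p6, both minus strand, 5′ to 3′). Capitals mark the core of the ETS motif, CCGGAAG on either strand, which factors such as GABP bind.
Cox6b2: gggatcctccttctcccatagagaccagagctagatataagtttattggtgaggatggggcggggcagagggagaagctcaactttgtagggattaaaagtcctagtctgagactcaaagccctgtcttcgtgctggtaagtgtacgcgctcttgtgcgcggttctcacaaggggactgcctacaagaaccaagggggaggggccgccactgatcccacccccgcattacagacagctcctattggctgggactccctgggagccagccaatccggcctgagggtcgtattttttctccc
Cox6b1: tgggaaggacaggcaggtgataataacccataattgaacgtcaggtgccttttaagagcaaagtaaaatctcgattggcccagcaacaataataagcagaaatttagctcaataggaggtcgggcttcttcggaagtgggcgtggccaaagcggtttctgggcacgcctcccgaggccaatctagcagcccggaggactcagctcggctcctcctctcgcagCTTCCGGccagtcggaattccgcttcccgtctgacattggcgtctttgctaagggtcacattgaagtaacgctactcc
The Cox6b1 window holds 1 such match, on the opposite strand, and the Cox6b2 window holds none of the 3 motifs searched.

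No like rise was seen in the other restricted isoforms. Cox4i2, the isoform of lung and of low oxygen, measured 3.35, 1.96 and 3.23 CPM in control and 3.95, 3.21 and 3.56 CPM in senescent libraries. The groups overlapped, at a log2 fold change of 0.31 (limma adjusted p 0.250). Cox7a1, the isoform of heart and skeletal muscle, gave 3.28 ± 1.07 and 2.63 ± 0.369 CPM, and the hypoxia-induced Ndufa4l2 gave 197, 74.3 and 127 CPM against 135, 89.1 and 94.1 CPM. Neither was called, and the interval for Ndufa4l2 ran from -1.001 to 0.52. Cox6a2, of heart and skeletal muscle, was the 1 gene of the 91 below the filter, at 2.54, 0.342 and 2.80 CPM in control and 0.238, 0.418 and 0.293 CPM in senescent libraries. Control replicate 2 was the lowest control library for all 5 restricted isoforms and lay within the senescent range for Cox6a2. The muscle actin Acta1 measured 34.7, 32.0 and 17.1 CPM in control and 11.9, 8.08 and 8.01 CPM in senescent libraries, and any link to Cox6a2 was not tested. Their widely expressed partners Cox4i1 (230.0 ± 9.29 and 241 ± 14.4 CPM), Cox6a1 (100.5 ± 4.86 and 92.7 ± 6.26 CPM) and Cox7a2 (99.4 ± 15.1 and 91.1 ± 8.37 CPM) were not called.

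**Figure D4:**
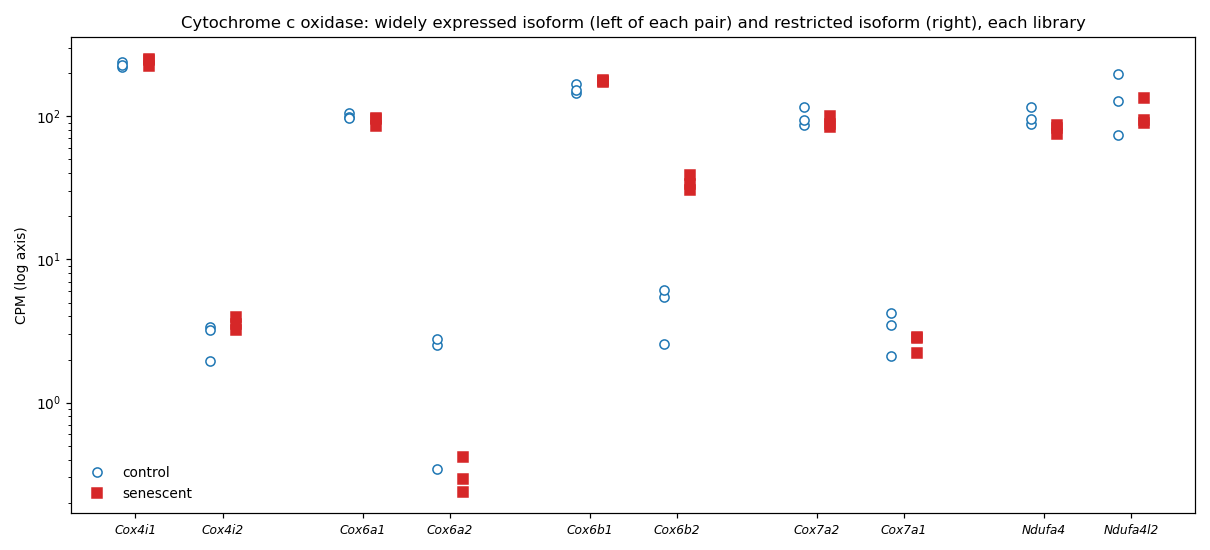
CPM (log axis) in each library for 5 pairs of complex IV isoforms, the widely expressed member on the left of each pair. Open circles are control and squares senescent libraries. Cox6b2 is the only gene of the 10 whose senescent libraries, at 30.4 to 38.8 CPM, stand well clear of the control libraries, at 2.57 to 6.14 CPM.

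Among the 11 widely expressed subunits of complex IV, Cox7c, a small membrane subunit, was called. It measured 76.8, 81.3 and 75.05 CPM in control and 61.7, 59.4 and 61.2 CPM in senescent libraries. The groups were apart, with a log2 fold change of -0.35 (SE 0.07, limma adjusted p 0.00480), a call lost only with library totals alone. Cox7c also has a listed near-identical copy. Ndufa4, first assigned to complex I and now counted in complex IV, stood at 99.8 ± 14.0 and 81.4 ± 5.57 CPM, at -0.28 (limma adjusted p 0.0669). Cox6c, at 112 ± 1.83 and 107 ± 3.76 CPM, was among those nearest to zero.

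In complex III, 8 of 9 subunits had a negative log2 fold change and 3 were called lower (33.3%). The share called lower was 24.3% of all genes tested and 33.9% of those with a mean of 30 CPM or more. Uqcrq, a small subunit that binds ubiquinone near its site in cytochrome b, measured 64.3, 54.4 and 63.4 CPM in control and 36.6, 44.2 and 40.3 CPM in senescent libraries. The lowest control value exceeded the highest senescent value, and the log2 fold change of -0.58 (SE 0.10, limma adjusted p 0.00324) was the largest fall of any subunit tested. It was called lower under all 16 alternatives, from -0.66 to -0.37. Cyc1, cytochrome c1, went from 68.3 ± 3.43 to 57.4 ± 1.74 CPM (-0.25, limma adjusted p 0.0244), and the core protein Uqcrc1 from 123 ± 7.01 to 104 ± 1.45 CPM (-0.24, limma adjusted p 0.0270). The call of Uqcrc1 held under 7 of 16 alternatives and was lost when any library but control replicate 3 was left out, and that of Cyc1 under 11, lost with library totals alone, with quantile normalization and without control replicate 1, senescent replicate 1 or senescent replicate 2.

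The Rieske iron-sulfur protein Uqcrfs1, the third catalytic subunit beside cytochrome b and Cyc1, stood at 47.4 ± 4.51 and 41.5 ± 0.780 CPM, with no overlap and no call (-0.18, limma adjusted p 0.125). The second core protein, Uqcrc2, gave 116 ± 6.11 and 110.3 ± 6.28 CPM, and the small subunits Uqcrb, Uqcr10 and Uqcr11 lay between -0.15 and -0.01. Uqcrh, the hinge protein, was the only positive member, at 117, 145 and 116 CPM against 155, 137 and 152 CPM. Its groups overlapped (0.24, limma adjusted p 0.0947).

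Complex I, the largest of the chain, was mostly uncalled: 32 of its 36 listed subunits were not called, and 33 lay within 0.3 of zero. The other 4 were called lower (11.1%), beside 24.3% of all genes tested. Its summed level was 1684 ± 20.4 CPM in control and 1627 ± 29.6 CPM in senescent libraries (SD, n = 3). Ndufs1, the largest of the iron-sulfur subunits (89.7 ± 10.99 and 83.8 ± 3.61 CPM), and the accessory Ndufb10 (39.3 ± 2.40 and 39.9 ± 0.517 CPM) were among the uncalled.

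The 4 called subunits changed by less than 0.5 on the log2 scale. Ndufa5, an accessory subunit of the matrix arm, went from 21.5, 25.2 and 24.1 CPM to 20.3, 16.4 and 15.5 CPM. The groups did not overlap, with a change of -0.44 (SE 0.13, limma adjusted p 0.0245). Ndufv3 and Ndufv2, of the module that oxidizes NADH, changed by -0.33 (limma adjusted p 0.0134) and -0.27 (limma adjusted p 0.0361), and Ndufs8, a core iron-sulfur subunit, by -0.30 (limma adjusted p 0.0345). Of the 7 core subunits listed 2 were called lower (28.6%), and of the 29 accessory subunits 2 (6.9%), beside 24.3% of all genes tested. All 4 calls were lost with library totals alone. None of the 36 subunits was called lower without senescent replicate 2 or without senescent replicate 3. The count was 1 without control replicate 3 and 2 without senescent replicate 1. Over all 14776 genes tested, 3592 were called lower in the main fit. Without senescent replicate 2 there were 2416 and without senescent replicate 3 2640. Without control replicate 3 there were 2705 and without senescent replicate 1 3274. The call of Ndufs8 was also lost without control replicate 1 and that of Ndufv2 without control replicate 2. Ndufs7, a core iron-sulfur subunit at 21.8 ± 4.66 and 16.6 ± 1.089 CPM (-0.36, limma adjusted p 0.0869), was called lower only in the fit with the replicate block (limma adjusted p 0.0440). With library totals alone, 13 of the 36 were called higher, beside 4992 of all 14776 genes tested.

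Complex II, which is also the succinate dehydrogenase of the citric acid cycle, showed no common direction. Sdhb, the iron-sulfur subunit, measured 68.2, 69.9 and 69.9 CPM in control and 55.5, 58.1 and 61.5 CPM in senescent libraries. It was lower in each senescent library, at -0.25 (SE 0.07, limma adjusted p 0.0227), a call lost with library totals alone, with quantile normalization and without control replicate 3, senescent replicate 1 or senescent replicate 2. The membrane anchors went apart in sign without a call in the main fit. Sdhc stood at 0.18 (111 ± 3.66 and 126 ± 6.63 CPM, limma adjusted p 0.0670). Sdhd stood at -0.18 (89.0 ± 6.90 and 78.2 ± 1.61 CPM, limma adjusted p 0.0867). Sdhc was called higher with library totals alone, median-of-ratios factors and quantile normalization, and by edgeR and DESeq2 on the recovered reads. Sdha, the flavoprotein, gave 208 ± 24.8 and 216 ± 8.07 CPM.

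Among the 11 genes that share the names without being subunits, the assembly factor Ndufaf4 showed the largest fall of the 90, from 14.8, 15.8 and 13.5 CPM to 9.45, 7.997 and 8.30 CPM. The groups were apart, at -0.75 (SE 0.12, limma adjusted p 0.00227), and the call held under all 16 alternatives. Ndufaf2 went from 11.5, 14.9 and 11.004 CPM to 8.68, 9.27 and 8.80 CPM (-0.45, limma adjusted p 0.0319), a call lost with library totals alone and without control replicate 2 or any 1 of the senescent libraries, and 65.7% of its exon bases overlap a gene on the other strand, and the sources do not state if counting used strand. Ndufaf3, also needed to assemble complex I, rose from 6.18, 6.88 and 5.80 CPM to 8.40, 8.72 and 10.4 CPM (0.51, SE 0.14, limma adjusted p 0.0185), a call lost without control replicate 3, senescent replicate 2 or senescent replicate 3. So of the 8 assembly factors in the set 1 was called higher (12.5%) and 2 lower (25%), beside 21.8% and 24.3% of all genes tested. Ndufaf1, Ndufaf5, Ndufaf6, Ndufaf7 and Atp5sl lay between -0.22 and 0.07 and were not called. Neither were Cox7a2l, which joins complexes into supercomplexes, at 108 ± 13.5 and 101 ± 4.09 CPM, Atp5s at 3.53 ± 0.115 and 5.05 ± 1.37 CPM, or Atp5l2-ps at 1.32 ± 0.195 and 0.893 ± 0.156 CPM. Atp5l2-ps is a near-identical copy of Atp5l (99.36% over 312 bases), so its reads may come from that gene.

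Promoter windows of 300 bases were found for 74 of the 91 genes, 80 windows in all, from RefSeq (GRCm38.p6). The NRF1 core stood in 23 of the 80 (28.8%), the ETS core in 17 (21.3%) and the core of the YY1 motif, AAGATGG on either strand, in 13 (16.3%). Over all 32851 promoters the shares were 6.25%, 8.86% and 6.34%, and over the 12994 promoters of genes tested here 12.5%, 16.4% and 6.82%. Matches to different motifs overlapped in 0 of the 80 windows. Among members called lower, 8 of 16 windows held the NRF1 core and 2 the ETS core, and among uncalled members 15 of 62 held each. The group of lower genes is small, and no test was made. The window of Ndufaf4, the gene with the largest fall, is chr4:24897833-24898132 (plus strand), with its NRF1 core in capitals, which reads on both strands.
Ndufaf4: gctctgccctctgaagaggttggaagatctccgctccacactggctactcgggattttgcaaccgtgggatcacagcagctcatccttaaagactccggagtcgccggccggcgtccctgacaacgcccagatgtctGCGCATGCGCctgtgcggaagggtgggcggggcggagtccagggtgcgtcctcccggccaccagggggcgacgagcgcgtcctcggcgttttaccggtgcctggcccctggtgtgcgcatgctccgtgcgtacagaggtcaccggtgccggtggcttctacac

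Of 16 tested regulators of mitochondrial biogenesis, 2 were called higher (12.5%) and 4 lower (25%), beside 21.8% and 24.3% of all genes tested. Nrf1 went from 31.6 ± 2.16 to 21.9 ± 1.64 CPM (-0.52, limma adjusted p 0.00405) and Gabpb2, a partner of GABP, from 49.5 ± 3.998 to 33.0 ± 1.36 CPM (-0.58, limma adjusted p 0.00178). Of the other factors for the motifs above, Gabpa, the DNA-binding part of GABP, stood at 67.5 ± 3.20 and 78.9 ± 5.37 CPM with no overlap (0.22, limma adjusted p 0.0506), Gabpb1 at -0.16 and Yy1 at 0.08, and none of the 3 was called. These 5 are named because of the motifs. Pprc1, a relative of the coactivator PGC-1α, fell by 0.76 on the log2 scale (limma adjusted p 0.00101), and Polg, the mitochondrial DNA polymerase, by 0.64 (limma adjusted p 0.000871). Ppargc1a, which encodes PGC-1α itself, measured 0.0446, 0.361 and 0.126 CPM in control and 1.23, 1.32 and 1.13 CPM in senescent libraries. It was higher in each senescent library (1.38, limma adjusted p 0.00156) yet stayed near 1 CPM, with 2 to 79 reads per library.

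Among 39 listed assembly factors outside the naming rule, 4 were higher (10.3%) and 9 lower (23.1%), beside 21.8% and 24.3% of all genes tested, with a median of 0.01. Tmem126b, a complex I assembly factor, rose from 8.68 ± 0.683 to 18.1 ± 2.20 CPM (1.01, limma adjusted p 0.000860), whereas Cox10, an enzyme of heme a synthesis, fell by 0.69 (limma adjusted p 0.00274) and Coa7, an assembly factor of complex IV, by 0.83 (limma adjusted p 0.00316). Of 14 electron carrier genes 1 was higher (7.14%) and 2 lower (14.3%), both shares under those of all genes tested. Pdss1, an enzyme of ubiquinone synthesis, went from 5.24, 6.67 and 5.19 CPM to 1.85, 2.19 and 2.09 CPM (-1.28, limma adjusted p 0.000750), and the cytochrome c gene Cycs fell by 0.41 (limma adjusted p 0.0371). Adck3, also of ubiquinone synthesis, rose by 0.91 (limma adjusted p 0.0309). Both these smaller calls were lost when control replicate 3 or any 1 of the senescent libraries was left out, and that of Cycs also without control replicate 2.

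The citric acid cycle feeds the chain with NADH and succinate, and its list here also held the pyruvate dehydrogenase genes Pdha1, Pdhb, Dlat and Pdhx. Of the 18 genes 7 were called lower (38.9%), Pdha1 among them (-0.33), and 0 higher. The share called higher was 21.8% of all genes tested and 16.6% of those with a mean of 30 CPM or more. The share called lower was 24.3% of all genes tested and 33.9% of those with a mean of 30 CPM or more. By limma 1 of the 18 was higher at an unadjusted p under 0.05, and edgeR and DESeq2 each called 1 higher, Idh3b. The median was -0.15. Idh2, the NADP-dependent isocitrate dehydrogenase of mitochondria, showed the steepest fall of these lists, from 56.8, 62.4 and 51.8 CPM to 16.02, 14.4 and 11.7 CPM. The groups lay far apart, at -1.99 (SE 0.13, limma adjusted p 0.000131). Citrate synthase, Cs, went from 275 ± 29.7 to 191 ± 6.43 CPM (-0.52, limma adjusted p 0.00322) and Dlst, of the 2-oxoglutarate dehydrogenase complex, from 178 ± 5.27 to 131 ± 5.67 CPM (-0.44, limma adjusted p 0.00203).

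How far the complexes stood from zero depended on how libraries were put on a common scale. The deposited scaling factors separate the groups (0.917 to 0.940 in control and 1.07 to 1.087 in senescent libraries). With the deposited scaling, the median of complex V stood at -0.17 relative to the median of all genes on the log2 scale. That of complex I stood at -0.02. In themselves, the median of complex V was -0.20 and that of all genes with a mean of 30 CPM or more -0.11. With library totals alone complex V stood at -0.16 relative to that median, and at 0.01 in itself, but with quantile normalization at -0.02 relative to it. As a share of all reads, the 80 subunits together took 0.636% in control and 0.673% in senescent libraries on average, whereas in CPM their sum was 6845 ± 208.5 and 6247 ± 120.5 (SD, n = 3), a change of -8.74%.

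**Figure D5:**
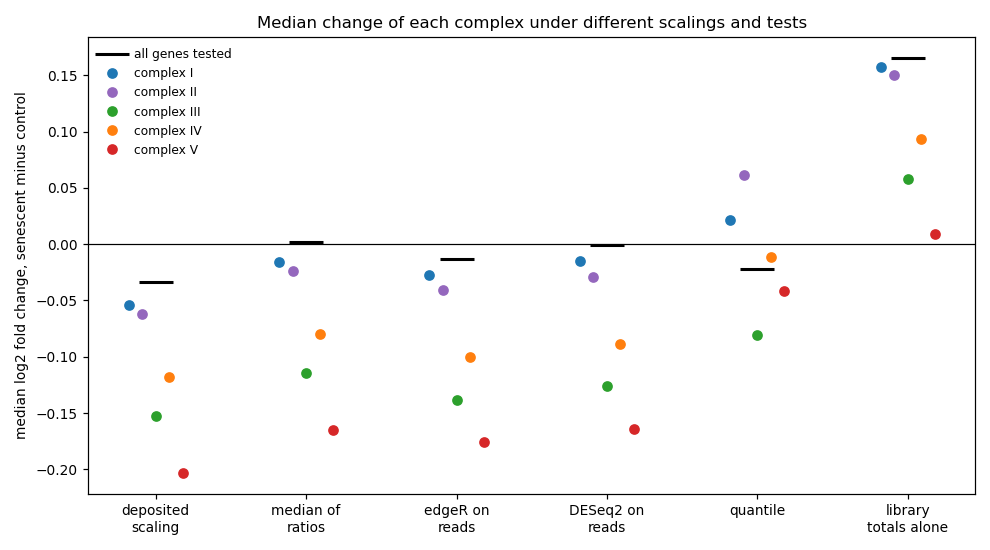
Median log2 fold change, senescent minus control, of each complex (coloured points) and of all genes tested (black bars) under 6 scalings or tests. With the deposited scaling complex V is at -0.20 and all genes at -0.03, and with library totals alone they are at 0.01 and 0.17.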

How the data were processed

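The authors prepared stranded mRNA libraries, sequenced them, counted reads per gene and deposited a signal for 6 libraries, edgeR's CPM over the scaled library size. The submitters' notes name edgeR 3.10, R 3.6.0 and mm10, while the aligner, the counting tool and its use of strand are not given in the sources used here. Every value was a whole multiple of 1 read (tolerance 0.05, 100% of values). A line with no gene name (0.0041% to 0.0070% of reads) was left out. The plan assumed CPM, and the planned test was kept: two-sided limma 3.58.1 with a variance trend, run in R 4.3.3 on log2(CPM + 0.5). Folds on this scale understate the change of low genes.

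Members and lists were chosen with earlier results of these data known. Named were all members of complexes II and III, in the other complexes the 4 with the smallest p, the 2 most abundant and the 2 nearest to zero, every change beyond 1, each isoform pair, each match that is no subunit and the 3 smallest p of each other list. Others were named after their values were seen. All counts include 1 gene that is not reported here. Near-identical copies were searched with blastn 2.17.0 among 88 of the 91 genes, and 21 had at least 1, of which 14 a copy listed in the table. The lists of carriers, factors and markers are hand-written, and members without a promoter entry include Ndufs1, Ndufa2, Ndufb9, Sdhc, Uqcrc2, Uqcrb, Uqcrq, Cyc1, Cox4i1, Cox4i2, Cox6a2, Cox6c, Ndufa4l2, Atp5a1, Ndufaf6 and Atp5l2-ps.

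Libraries with the same replicate number deviated together from their group means (correlations 0.537, 0.308 and 0.207). Control replicate 2 with senescent replicate 3 gave 0.153, and the other combinations gave -0.357 to -0.0277. The labels do not explain the numbers, and whether they pair the cultures was not tested. The main fit and the permutation tests treated the libraries as unpaired. Alternatives were pseudocounts of 0.1 and 1, no filter or a filter at 2 CPM, other scalings, the replicate block, each library left out, and count models on the whole reads with DESeq2 1.42.0 or edgeR 4.0.16.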

Additional observations from a re-analysis of the deposited data

How the results depend on the processing

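With library totals alone 23 genes were called higher and 5 lower, in place of 2 and 17, and the medians of complexes I to V were 0.157, 0.150, 0.0582, 0.0934 and 0.00881. With quantile normalization 7 were called higher and 12 lower, and the medians were 0.0216, 0.0618, -0.0810, -0.0113 and -0.0412. Median-of-ratios factors and DESeq2 on the recovered reads each gave 4 higher, with 14 and 15 lower. In the fit with the replicate block, 2 were higher and 18 lower, 5 of these in complex I, since Ndufs7 was added. The block changed no other call among the 90. Over all 14776 genes tested, the main fit called 3218 higher and 3592 lower. The counts were 4992 and 1929 with library totals alone, and 3163 and 3364 with quantile normalization. Median-of-ratios factors gave 3492 and 3225, DESeq2 3560 and 3440, and the replicate block 3576 and 3947. With single libraries left out, 1 to 6 of the 90 genes were called higher (6 without control replicate 2). Lower calls numbered 8 to 16 (8 without senescent replicate 2, 10 without senescent replicate 1 or senescent replicate 3). Over all genes tested these fits called 2130 to 3405 higher and 2416 to 3875 lower. The medians then ranged from -0.0835 to -0.0177 in complex I, from -0.101 to 0.0168 in complex II (without control replicate 2), from -0.227 (without control replicate 1) to -0.0419 (without control replicate 2) in complex III, from -0.165 to -0.0643 in complex IV and from -0.251 to -0.165 in complex V. The pseudocount and the filter on low values changed no count of calls among the 91. Of 17 lower calls, 5 held under all 16 alternatives: Uqcrq, Atp5g1, Atp5g2, Atp5a1 and Ndufaf4. The causes of the other losses were not tested.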
